A study of Mus musculus with 8 samples.

Results

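Levels of 10 enzymes of DNA methylation, its oxidation and base excision repair were followed in mouse embryonic cortex with and without the kinase NUAK1. They are the thymine DNA glycosylase Tdg, the glycosylases Mbd4, Smug1 and Ung, the endonuclease Apex1, the dioxygenases Tet1, Tet2 and Tet3, and the methyltransferases Dnmt1 and Dnmt3a. The members were chosen by gene symbol, Tdg because its RNA was lower in Nuak1 KO cortex in these same libraries and the other 9 because of their role, with the results of these data already known. The KO against WT difference of Tdg is therefore given as a description and was not tested. Of the 10 symbols, 9 were found in the count table, on 10 of its 21165 rows. Tet3 was absent under that symbol, but 2 rows carried B430006D22Rik, an older name of Tet3, and Tet1 had 2 rows of its own, so the 10 genes were read from 12 rows. All 12 rows passed the filter on low counts and were among the 12699 rows tested.

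The data were polyA RNA sequencing counts from cortices microdissected at embryonic day E18.5 from 4 Nuak1 KO and 4 WT embryos. The KO is constitutive, so the gene was disrupted in every cell of the embryo, and such animals die at birth. The line was kept on a C57Bl/6JRj background, and the labels name 3 litters, with 2 males among the KO and 1 among the WT embryos. Each column of the table was named by genotype and number (KO R1 to R4, WT R1 to R4), and none could be tied to a litter, a sex or an embryo.

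DNA methyltransferases place a methyl group on cytosine, mostly in CG dinucleotides. Dnmt3a places new marks, and Dnmt1 copies them onto the daughter strand after replication. TET enzymes oxidise 5-methylcytosine in steps to 5-hydroxymethylcytosine, 5-formylcytosine and 5-carboxylcytosine, and TDG cuts out the last 2 of these, after which base excision repair restores an unmodified cytosine. TDG, MBD4, SMUG1 and UNG also remove uracil or thymine left by deamination. In brain, 5-hydroxymethylcytosine is abundant in neurons, and Dnmt3a writes non-CG methylation as neurons mature.

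Totals lay between 9643711 and 27014858 counts per library. Values below are normalized counts, that is counts after TMM normalization, brought to a common library size. Nuak1 averaged 14.2 ± 4.35 normalized counts over the KO libraries and 1204 ± 260 over the WT libraries (SD, n = 4 each), so the libraries followed their labels. Of 10 markers of excitatory neurons, the main cell class of this tissue, 9 had a row (Rbfox3 had none), and these were all detected and summed to 47993 to 59796 normalized counts per library. KO R1 stood apart with 10333 normalized counts of meningeal fibroblast markers, against at most 508 in any other library. WT R4 stood apart in a different way, which bears on the members and is described with them. In bulk RNA, fewer cells of a type and less RNA per cell cannot be told apart.

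Tdg lies on chromosome 10 of NCBIM37 (mm9) at chr10:82092573-82113544 on the plus strand, on the chromosome that also carries Nuak1. The megabases between the nearer ends of both genes came to 1.72. The next gene upstream is 1190007I07Rik, which encodes the mitochondrial microprotein BRAWNIN on the opposite strand, and 6.6 kb separate the starts of this head-to-head pair. Tet1 is also on chromosome 10, at chr10:62267318-62361866, 21.47 Mb from Nuak1. The other members are on chromosomes 3 (Tet2), 5 (Ung), 6 (Tet3 and Mbd4), 9 (Dnmt1), 12 (Dnmt3a), 14 (Apex1) and 15 (Smug1).

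The Tdg transcript has close copies elsewhere in the genome, and many reads from the copied stretches, taken singly, cannot be told apart by sequence. Of the 3502 bases of the longest coding transcript of Tdg, 3026 (86.41%) had a copy at least 95% identical outside the gene. Of its 3403 windows of 100 bases, the read length, 2245 (65.97%) matched exactly at another place. Reads came in pairs, and how many pairs match elsewhere was not examined. The largest copies were at chr15:82346686-82349711 (98.64% identical over 3026 bases), chr7:83388071-83391005 (99.32% over 2935 bases), chr10:41772360-41775162 (99.25% over 2805 bases) and chr19:33746768-33748526 (99.55% over 1762 bases). The annotation has the gene model Gm5806 at the chromosome 15 copy, the pseudogene Gm9855 at the one on chromosome 10 and the gene Lipo1 at the one on chromosome 19. Gm5806 had 0 counts in all 8 libraries, and Gm9855 and Lipo1 had 0 rows by these symbols in the table. How the counting treated reads with several matches is not given in the sources used here. The absolute level of Tdg is uncertain for this reason. Among the other members, exact matches elsewhere were found for 1.17% of the windows of Mbd4 and for 0% in the remaining 8.

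**Figure D1:**
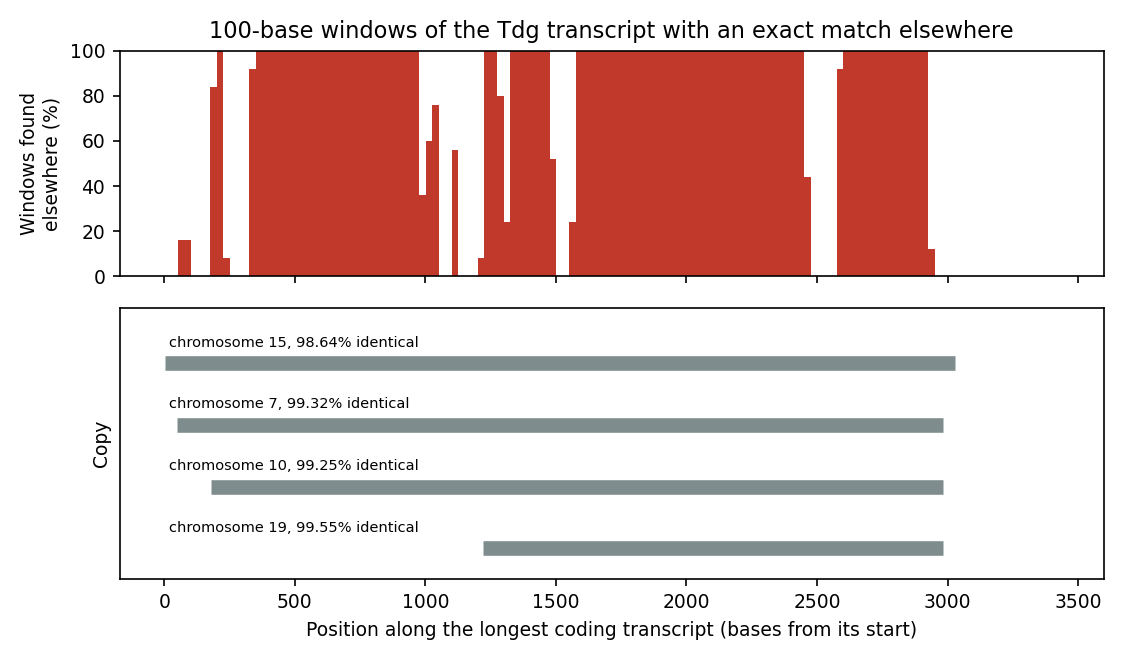
Shared sequence along the Tdg transcript. The upper panel gives the share (%) of 100-base windows, in bins along the transcript (x axis, bases from its start), with an exact match elsewhere in NCBIM37, and the lower panel gives the stretch covered by each of the 4 largest copies. Most bins stand at 0% or 100%, and the last bases of the transcript, beyond position 3027, have none of the 4 copies.

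The longest coding exon stretch of Tdg has near-perfect copies and shows how little separates them there. It is printed from NCBIM37, chr10:82104061-82104302 on the plus strand, beside the chromosome 15 copy at chr15:82347041-82347282 on the plus strand. A capital marks the 1 base of 242 that differs. The chr7 copy (chr7:83390457-83390698, minus strand) and the chr10 copy (chr10:41774744-41774985, minus strand) have 0 differences from Tdg over these bases and are not printed.
Tdg: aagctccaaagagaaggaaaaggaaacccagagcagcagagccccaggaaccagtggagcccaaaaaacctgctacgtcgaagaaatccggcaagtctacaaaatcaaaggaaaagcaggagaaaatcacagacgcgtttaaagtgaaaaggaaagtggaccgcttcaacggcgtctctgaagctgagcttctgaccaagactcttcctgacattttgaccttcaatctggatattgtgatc
chr15 copy: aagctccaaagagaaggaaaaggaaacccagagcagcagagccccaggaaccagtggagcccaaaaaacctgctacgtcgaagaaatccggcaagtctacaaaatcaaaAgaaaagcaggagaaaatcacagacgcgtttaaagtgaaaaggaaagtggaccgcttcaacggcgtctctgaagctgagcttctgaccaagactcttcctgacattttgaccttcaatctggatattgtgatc

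The promoter of Tdg is shown because the gene starts in a CG-rich stretch, and CG is the main site of DNA methylation. The 250 bases before its start are from RefSeq, GRCm38.p6, chr10:82629588-82629837 on the plus strand, with each CG in capitals.
Tdg promoter: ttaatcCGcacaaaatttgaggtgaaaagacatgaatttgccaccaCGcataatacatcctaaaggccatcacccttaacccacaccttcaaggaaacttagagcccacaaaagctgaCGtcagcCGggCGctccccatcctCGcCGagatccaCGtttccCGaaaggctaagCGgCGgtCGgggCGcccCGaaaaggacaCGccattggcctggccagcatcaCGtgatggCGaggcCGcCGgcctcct
With the 50 bases after the start, the Tdg promoter held 26 CG dinucleotides, and the median of 32851 promoters of the same length was 7. At least as many were found in 16.87% of promoters. All 10 members matched a RefSeq promoter, and their counts ranged from 2 in 1 of the 3 promoters of Dnmt1 to 57 in that of Tet2. The palindrome TGACGTCA, which reads the same on both strands and was picked after the sequence had been seen, begins 135 bases before the start of Tdg. It was in 1.79% of all promoters and in 0 of those of the other 9 members. No methylation or binding data were analysed here.

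Tdg had 1140, 981, 1037 and 1051 normalized counts in KO R1 to R4 and 1800, 1835, 2056 and 1802 in WT R1 to R4. Every KO library was below every WT library, as in 1.85% of all tested rows. The gap between the highest KO and the lowest WT library was wider than the spread within either genotype. Means were 1052 ± 66.1 for KO and 1873 ± 123 for WT (SD, n = 4 each), so KO cortex held 56.2% of the WT level. On the log2 scale the difference was -0.83. Without KO R1, the library with meningeal markers, it was -0.86. Counts on Tdg may include reads of its copies, whose part in the difference was not tested. A further 367 of the 5374 exon bases of Tdg overlap Glt8d2 on the other strand. The library kit keeps strand, but the strand setting used in counting is not given in the sources used here.

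The other 3 glycosylases had no difference past the spread between libraries. Mbd4, which excises thymine and uracil opposite guanine in CG sites, had 155, 166, 217 and 177 normalized counts in KO and 165, 193, 206 and 179 in WT. Smug1, a uracil and 5-hydroxymethyluracil glycosylase, had 186, 196, 198 and 209 in KO and 179, 172, 199 and 167 in WT. In both genes the genotypes overlapped, and Smug1 leaned to KO by 0.14 on the log2 scale (standard error 0.10, 95% interval -0.07 to 0.35, adjusted p = 0.795, edgeR with Benjamini-Hochberg). For Mbd4 the log2 fold change was -0.05, with an interval from -0.32 to 0.23. Ung, the main uracil glycosylase of replicating cells, had 58.9, 45.6, 54.5 and 46.5 normalized counts in KO and 56.5, 50.8, 71.3 and 74.3 in WT. Its lowest WT libraries lay within the KO range, and its log2 fold change of -0.28 (standard error 0.18, interval -0.69 to 0.12) was the lowest among the members other than Tdg (adjusted p = 0.781, edgeR with Benjamini-Hochberg).

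Apex1, the endonuclease that cuts the abasic site a glycosylase leaves, had 1735, 1619, 1729 and 1647 normalized counts in KO and 1588, 1831, 1571 and 1382 in WT. WT R2 was above every KO library and the other WT libraries below every one, so the genotypes overlapped through a single library. The log2 fold change was 0.08 (interval -0.09 to 0.25), and without WT R2 it was 0.15, with an adjusted p of 0.588 (edgeR with Benjamini-Hochberg). Of the 1422 exon bases of Apex1, 877 overlap Tmem55b on the other strand, so with the strand setting unknown its counts may hold reads of that gene.

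The TET dioxygenases, which make the oxidised bases that TDG removes, overlapped between genotypes in all 5 rows. Tet2 had 465, 511, 537 and 530 normalized counts in KO and 533, 625, 596 and 404 in WT. The spread of WT, from 404 in R4 to 625 in R2, enclosed the whole KO range. Tet3 row 1, the larger of its rows, had 603, 663, 600 and 613 in KO and 701, 603, 768 and 541 in WT, and row 2 had 131, 129, 100 and 105 in KO and 95.6, 111, 133 and 94.6 in WT. Log2 fold changes were -0.08 for Tet2 (interval -0.35 to 0.18), -0.08 for Tet3 row 1 (interval -0.30 to 0.14) and 0.08 for Tet3 row 2 (interval -0.26 to 0.42). Tet1 was scarce. Its row 1 ranged from 30.7 in KO R1 to 76.0 in KO R2 and from 45.6 to 71.9 in WT, and its row 2 from 58.0 to 78.2 in KO and from 69.3 to 91.1 in WT. The Tet1 log2 fold changes of -0.20 and -0.18 had standard errors of 0.25 and 0.16, so row 1 in particular was measured with little precision. With a library left out, row 1 ranged from -0.37 without KO R2 to -0.03 without KO R1, and row 2 from -0.24 without KO R1 to -0.09 without WT R2.

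The methyltransferases varied little between libraries. Dnmt1 had 5366, 6001, 6028 and 5963 normalized counts in KO and 6178, 6019, 6570 and 5702 in WT. KO R1 was below the rest and WT R3 above, while the middle libraries of both genotypes were mixed. Dnmt3a had 1131, 1020, 1086 and 1090 in KO and 1141, 939, 1139 and 990 in WT, with the KO range inside the WT range. The log2 fold change was -0.07 for Dnmt1 (standard error 0.06, interval -0.20 to 0.06) and 0.04 for Dnmt3a (standard error 0.07, interval -0.12 to 0.20). Without KO R1 the value for Dnmt1 was -0.02.

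In the 11 rows other than those of Tdg, 0 had an adjusted p under 0.05 by edgeR (quasi-likelihood, Benjamini-Hochberg), against 0.0709% of all rows tested. At an unadjusted p under 0.05 the count was also 0, against 7.69% of all rows, and DESeq2 gave 0 at an adjusted p under 0.05, against 0.638%, and 0 at an unadjusted one, against 7.21%. Log2 fold changes were negative in 7 rows and positive in 4, with a median of -0.07 and a range from -0.28 to 0.14. Over all tested rows the median was -0.01, with 5794 positive and 6905 negative. In 0 of the 11 rows did the genotypes separate without overlap, as they did in 4.49% of all rows (1.85% lower and 2.64% higher in KO). These values do not show that the enzymes were equal in both genotypes, and the intervals above give the differences still possible.

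**Figure D2:**
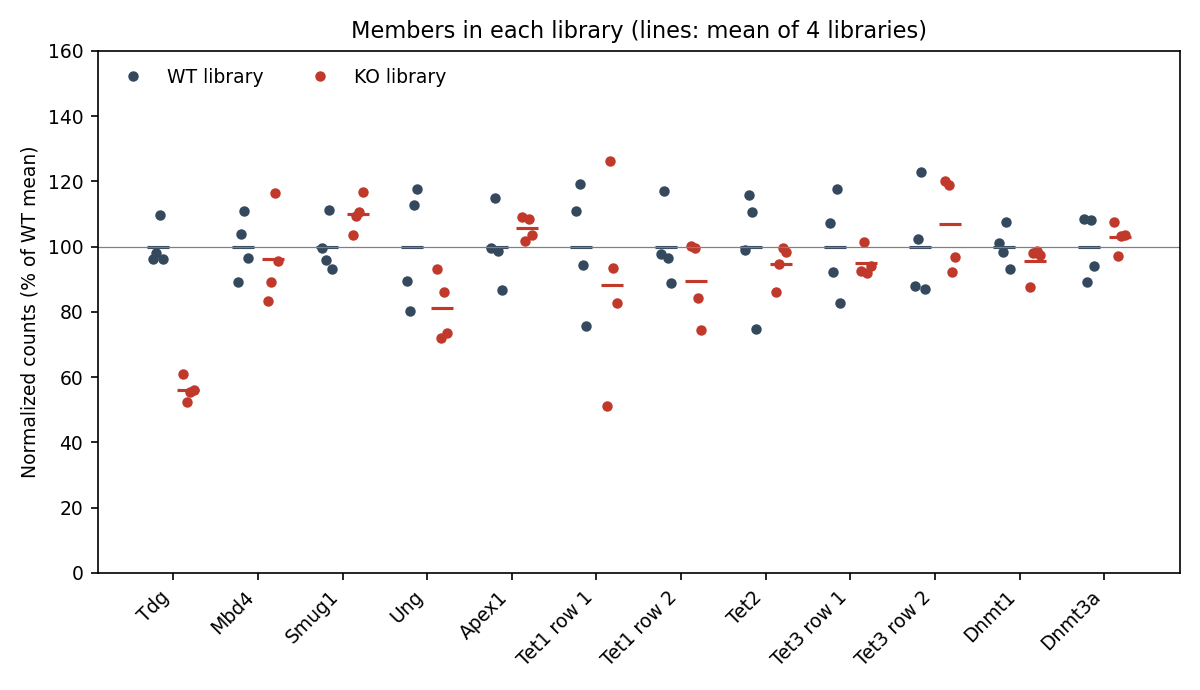
Normalized counts of each member row in each library, as a percentage of the WT mean of that row (y axis, from 0), with WT in dark blue and KO in red and a line at the mean of each 4 libraries. For Tdg all KO points stand well below all WT points, around 56.2%, and in the other 11 rows the 2 colours overlap.

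Among the WT libraries, R4 was often the lowest for these genes. It was the lowest of the 4 in 8 of the 12 member rows (66.67%) and in 27 of the 41 tested rows of related pathway genes (65.85%), against 34.33% of all tested rows. The sum of 10 markers of cycling cells was also lowest there, at 8327 normalized counts against 11036, 12696 and 13108 in WT R1 to R3. In KO the same sum ran from 9032 to 11562, within the range of WT. Cycling markers were not alone in this. In WT R4 excitatory neuron markers summed to 47993, against 53458 to 56891 in WT R1 to R3. Red blood cell markers summed to 1591 there, against 2854 to 3806. Radial glia and progenitor markers were not lowest there, at 28670, against 25016, 22278 and 31838 in WT R1 to R3. Without WT R4, Tet2 had a log2 fold change of -0.19 and an unadjusted p under 0.05 by edgeR. Tdg aside, no other member had one in that fit. Of all rows in that fit, 5.4% were lower and 7.05% higher in KO at that threshold. The adjusted p of Tet2 was 0.395 by edgeR (quasi-likelihood, Benjamini-Hochberg). The part of cycling or other cells in these values was not tested.

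To compare levels between genes, counts were divided by the kilobases of annotated exon and by the library total, as for RPKM. For this the rows of Tet1 were summed, and so were those of Tet3. The level of Apex1 may hold reads of Tmem55b, as described above. On that scale Dnmt1 (70.5 ± 3.86) and Apex1 (67.9 ± 7.38) were highest in WT (SD, n = 4 each) and overlapped each other. Tdg followed at 21.1 ± 1.36 in WT and 11.8 ± 0.88 in KO, apart from its neighbours on both sides. Tet3 (4.17), Dnmt3a (3.83), Tet2 (3.55) and Smug1 (3.37) formed a run in which each overlapped the next. Mbd4 (2.23), Ung (1.50) and Tet1 (0.57) came last, each below the range of the gene before it. In KO, Tdg kept rank 3, and Apex1 and Dnmt1 changed places within their overlap. Smug1 (3.52 to 3.92) stood above Tet2 (3.09 to 3.49) in KO, where they did not overlap, while in WT they did. The level of Tdg depends on the length taken. It was 32.4 with the longest coding transcript and 98.1, the highest of all members, when only windows with no exact match elsewhere were counted as length. All counts of Tdg were kept for that last value. It would hold only if reads with several matches had not been counted, which is not known, and if each read stood alone. Reads came in pairs, which the windows do not allow for.

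**Figure D3:**
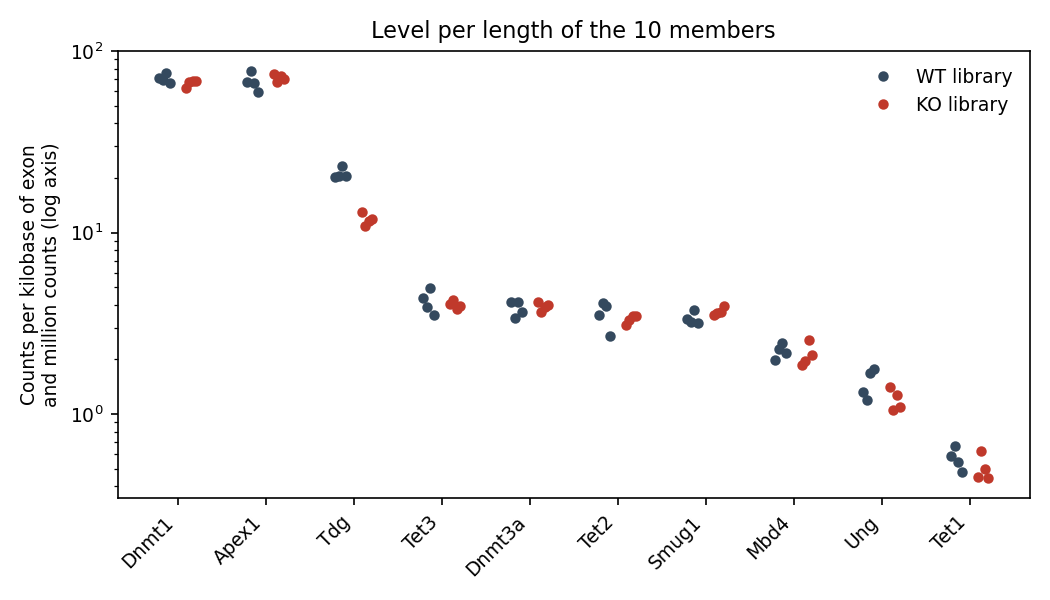
Level of each of the 10 genes per kilobase of exon and library total, as for RPKM (log axis) in each library, WT in dark blue and KO in red, ordered by the WT mean. Tdg has rank 3, near 21.1 in WT and 11.8 in KO, and above all TET and the other glycosylase genes.

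By the counts given, Tdg was the largest part of the RNA for the 4 glycosylases that act on uracil or thymine. Its share of their summed level per length was 75.3%, 75.5%, 74.6% and 74.3% in WT R1 to R4 and 65.6%, 62.1%, 60.6% and 62.4% in KO R1 to R4. The genotypes did not overlap, and the WT libraries lay within a much narrower range than the KO ones. On average Tdg made up 74.9 ± 0.55% of the WT total and 62.7 ± 2.11% of the KO total (SD, n = 4 each). This share rests on the same Tdg counts that chose the gene and was not tested. Even at the KO level, Tdg counts per length exceeded those of Mbd4, Smug1 and Ung together in every library. These counts may include reads of the Tdg copies, and none of the lengths tried took such reads out. The absolute level of Tdg and its share are therefore uncertain.

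**Figure D4:**
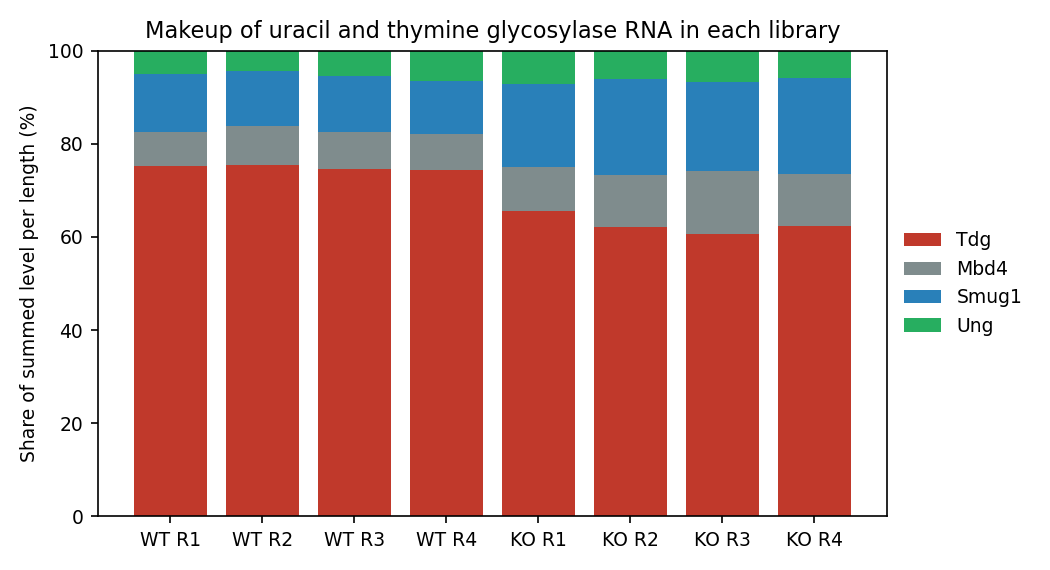
Share (%) of Tdg, Mbd4, Smug1 and Ung in their summed level per length, 1 bar per library, each bar adding to 100%. Tdg fills between 74.3% and 75.5% of the WT bars and between 60.6% and 65.6% of the KO bars.

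The wider pathway was read from 8 lists with 55 genes, of which 45 were not members. Of those 45 rows, 41 were tested, and the other 4 were too low. By edgeR (quasi-likelihood, Benjamini-Hochberg) 0 of the 41 had an adjusted p under 0.05. At an unadjusted p under 0.05, 2 were higher in KO, against 4.51% of all tested rows, and 1 was lower, against 3.18%. Their median log2 fold change was -0.04, with 13 positive and 28 negative, beside -0.01 over all tested rows. The genotypes separated without overlap in 2 of the 41 rows, both lower in KO, and 0 were higher. Among all tested rows 1.85% separated lower and 2.64% higher.

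Apobec1, a cytidine deaminase known for editing RNA, had 46.1, 42.6, 36.5 and 38.4 normalized counts in KO and 49.3, 59.6, 80.6 and 65.9 in WT. All KO libraries were below all WT libraries, which occurred in 1.85% of tested rows, though KO R1 and WT R1 nearly met. Its log2 fold change was -0.65 (standard error 0.19, adjusted p = 0.483, edgeR with Benjamini-Hochberg). Neil1, a glycosylase for oxidised bases, had 251, 277, 272 and 289 in KO and 254, 238, 221 and 236 in WT, a log2 fold change of 0.20 (adjusted p = 0.645, edgeR with Benjamini-Hochberg). Zbtb38, which encodes a zinc finger protein that binds methylated CG, had 151, 201, 163 and 170 in KO and 141, 161, 129 and 128 in WT, a log2 fold change of 0.28 (adjusted p = 0.646, edgeR with Benjamini-Hochberg). In both, 3 of the KO libraries were above all WT libraries and the fourth was not.

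By role, the medians of the lists below lay near 0, which does not show that single genes were unchanged. The 11 tested genes of strand repair, Apex1 included, had a median log2 fold change of -0.05, between -0.16 for Lig3, the ligase that seals the repaired strand with XRCC1, and 0.08 for Apex2. Lig1, the replicative ligase, had 1070, 1087, 1123 and 1111 normalized counts in KO and 1127, 1210, 1299 and 1125 in WT. The genotypes did not overlap and KO was lower, as in 1.85% of all tested rows. The gap between KO R3 and WT R4 was small beside the spread, and the log2 fold change of Lig1 was -0.12 (interval -0.25 to 0.02). All 6 partners of maintenance methylation were negative, with a median of -0.04 and a lowest value of -0.18 for Uhrf1, which brings DNMT1 to hemimethylated DNA. Among the writers, Dnmt3b had 51.2, 83.6, 109 and 76.2 in KO and 95.6, 103, 111 and 81.1 in WT, a log2 fold change of -0.28 (interval -0.74 to 0.19). The 7 readers of methylated CG had a median of -0.02. The 6 genes of methyl donor supply had a median of -0.04 and the 11 glycosylases one of -0.05, Tdg included.

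**Figure D5:**
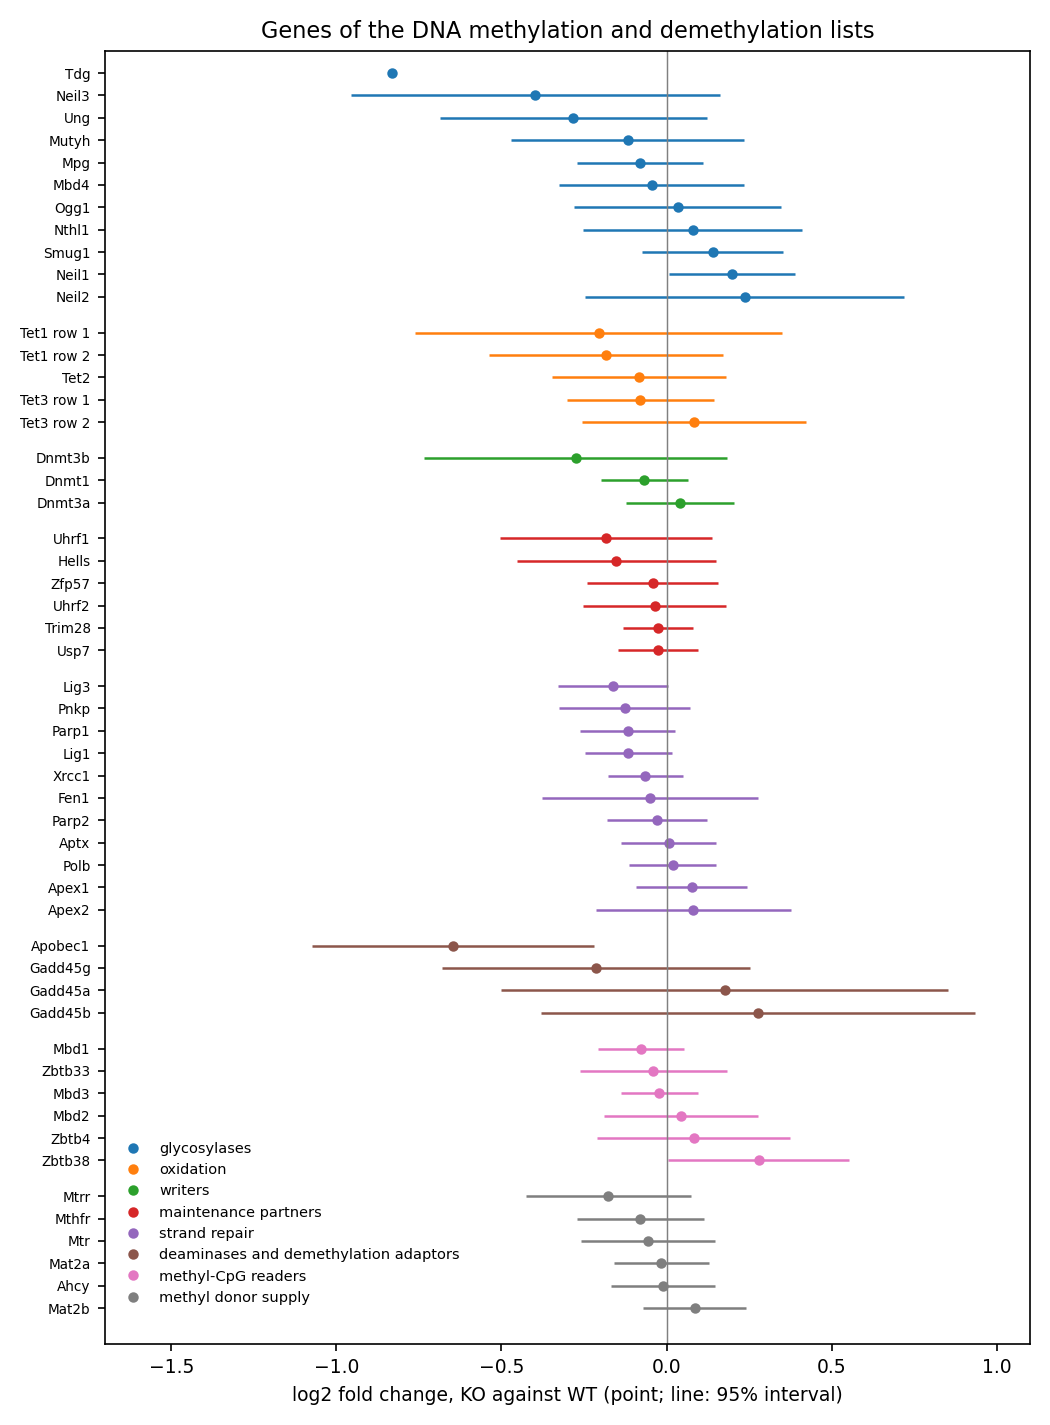
Log2 fold change of KO against WT (x axis) with its 95% interval (line) for 52 of the 53 tested rows of the pathway lists, grouped and coloured by list. Tdg, chosen for its difference, is drawn as a point without an interval at -0.83. The intervals of the other rows drawn include 0 except for Apobec1, Neil1 and Zbtb38.

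Here too the counts turned on WT R4. Without it, 10 of the 52 tested pathway rows other than Tdg had an unadjusted p under 0.05 and were lower in KO (19.2%), against 5.4% of all rows in that fit. They were Neil3, Lig3, Uhrf1, Parp1, Gadd45g, Mtrr, Hells, Apobec1, Tet2 and Lig1. Neil3, a glycosylase of proliferating cells, had 161, 122, 184 and 117 normalized counts in KO and 166, 233, 263 and 103 in WT, and Hells, a chromatin remodeler needed for maintenance methylation, 436, 382, 454 and 401 in KO and 474, 536, 515 and 324 in WT. In both, WT R4 was below all KO libraries. In that fit 0 of the rows had an adjusted p under 0.05 by edgeR (quasi-likelihood, Benjamini-Hochberg), and the lowest was 0.254.

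The gene whose profile over the 8 libraries was nearest to that of Tdg, by the root mean square difference of centred log2 normalized counts over 12698 other genes, was Dqx1 (0.12), followed by Nrp1 (0.18) and Nek2 (0.19). Dqx1 was scarce, with 12.8, 9.12, 8.66 and 10.8 normalized counts in KO and 16.4, 19.3, 21.1 and 16.9 in WT. Nrp1, a receptor for semaphorins and VEGF, had 4382, 3652, 3862 and 3912 in KO and 5399, 6315, 5441 and 5479 in WT. Nek2, a kinase of the centrosome cycle, had 75.6, 66.9, 82.3 and 68.8 in KO and 103, 104, 114 and 94.6 in WT. All 3 separated by genotype like Tdg, which follows from how they were chosen. The neighbour 1190007I07Rik (Brawnin) was not among them. It had 58.9, 35.0, 37.7 and 35.7 normalized counts in KO and 129, 137, 106 and 130 in WT, a log2 fold change of -1.60, and so a larger difference than that of Tdg. Of its 748 transcript bases, 65.11% had a copy at least 95% identical elsewhere, but 0% of its 100-base windows matched exactly.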

How the data were processed

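RNA from 8 cortices was sequenced as 100-base pairs from a stranded polyA kit. Reads were trimmed by the authors (Cutadapt 1.13, then Prinseq), who mapped them to mm9 with TopHat2 2.0.13, used SAMtools 0.1.19 and HTSeq-count, and deposited whole-number counts per gene without normalization. The annotation, the strand setting and the handling of reads with several matches are not given in the sources used here.

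Libraries were grouped by genotype. The test was edgeR 4.0.16 (R 4.3.3), with filterByExpr, TMM and the quasi-likelihood fit, adjusted by Benjamini-Hochberg over 12699 rows. The standard error is the size of the log2 fold change divided by the square root of F. DESeq2 1.42.0 was an alternative, and the code was tested on simulated counts. Replicates are embryos per the labels. Transcripts from an annotation of NCBIM37 were searched against that genome with blastn 2.17.0. The members, the 8 pathway lists, the 8 marker lists and the tests were chosen with earlier results of these data known. Genes named are the members, Nuak1, 1190007I07Rik, pathway genes with an unadjusted p under 0.05 and the 3 genes nearest to Tdg on a log2(normalized count + 0.5) scale. Other size factors, no filter, at least 10 counts in every library, other lengths and each library left out were also tried. Lig1, Lig3, Apex2, Uhrf1, Dnmt3b, Neil3, Hells and the genes listed for the fit without WT R4 were named after their values were seen. Marker lists are summarised in the closing section. Protein sequences were not used here, and some genes of the lists are not reported by name.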

Additional observations from a re-analysis of the deposited data

Results flagged for a closer look

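Dixon's ratio, the gap of an extreme library to its neighbour over the range of its genotype, was above the 95% critical value in 4 of 40 groups, where chance gives about 1 in 20, or 2. Tdg had 2056 normalized counts in WT R3, above the other WT libraries, and leaving R3 out gave a log2 fold change of -0.78. Dnmt1 had 5366 normalized counts in KO R1, below the other KO libraries, which lay between 5963 and 6028, and leaving R1 out moved its log2 fold change from -0.07 to -0.02. Brawnin (1190007I07Rik) had 58.9 normalized counts in KO R1, above the other KO libraries but below all WT libraries. Nrp1 had 6315 normalized counts in WT R2, above the other WT libraries.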

How the results depend on the processing

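No paired analysis was possible because no column could be tied to a litter, embryo or sex, and a running number shared by a KO and a WT column pairs nothing in the labels. The log2 fold change of Tdg was negative in all 13 alternative fits and lay between -0.86 and -0.78 with a library left out. No member or pathway row other than Tdg had an adjusted p under 0.05 in any of them. Over 254 alternatives for single genes, 239 kept direction and call, 10 lost a call (4 for Brawnin, 6 for Nrp1) and 5 changed direction, all from values near 0. The last were Mbd4 (range -0.16 to 0.026) at 0.026 without KO R1, 0.00012 without KO R2 and 0.011 without WT R3, Tet3 row 1 (range -0.15 to 0.011) at 0.011 without WT R3, and Dnmt3a (range -0.011 to 0.086) at -0.011 without WT R2. Members other than Tdg at an unadjusted p under 0.05 numbered 0 in each direction, and with a library left out 0 to 1 were higher (Apex1 without WT R2) and 0 to 1 lower (Tet2 without WT R4). Pathway rows other than Tdg that were higher numbered 2, but 0 with DESeq2 and 0 to 3 with a library left out (0 without KO R2, KO R3, KO R4, WT R3 or WT R4 and 1 without WT R1). Those lower numbered 1, but 2 with no filter on low counts and 1 to 10 with a library left out (2 without KO R2 or KO R3, 10 without WT R4). The share of all rows at that threshold also moved with the fit. With a library left out, 2.98% to 7.05% were higher and 1.94% to 5.4% lower in KO, both highest without WT R4. It was 4.51% higher with DESeq2 and 2.33% lower with no filter. The cause of the changes in these counts was not tested. DESeq2's size factors moved the median of all rows by 0.0069.

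The Tdg level per length in WT went from 21.1 to 32.4 with the longest transcript and 98.1 with windows found nowhere else, where its rank went from 3 to 1. The last length and the summing of rows that share a symbol were chosen after seeing the data. With the last length all counts were kept, so its values hold only if reads with several matches were not counted. That length also takes each read alone, although reads came in pairs. The Tdg share of glycosylase RNA under the same lengths was 79.7% and 91.9% in WT and 69.0% and 86.7% in KO. With a library left out these values were 20.5 to 21.4, 74.7% to 75.1% and 61.7% to 63.4%, and the rank stayed at 3. Counts under 100 in a library, as for Ung and Tet1, limit those genes most.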

Other observations

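Markers of other cells were summed in each library as a background to the Tdg difference, whose link to them was not tested. The 10 markers of cycling cells had a median of -0.13 on the log2 scale of KO against WT, and 0 had an unadjusted p under 0.05. For this and the counts that follow, 4.51% of all tested rows were higher and 3.18% lower in KO at that threshold. The 10 markers of radial glia and intermediate progenitors, with a median of -0.11, summed to between 23592 and 27814 normalized counts in KO and between 22278 and 31838 in WT, with 1 lower at an unadjusted p under 0.05. Of 9 markers of cortical excitatory neurons, 2 were higher and 1 lower at that threshold, with a median of 0.04. Of 8 interneuron markers, 1 was higher and 1 lower, and log2 fold changes were negative in 7 and positive in 1, with a median of -0.14. Their sums were higher in KO without overlap (5036 to 5521 in KO, 4054 to 4882 in WT), with Npy, the positive one, the only one to pass an adjusted p of 0.05 by edgeR (quasi-likelihood, Benjamini-Hochberg). The 5 tested meningeal fibroblast markers were all higher at an unadjusted p under 0.05, with a median of 2.93, but by sums the KO libraries other than R1 held 341 to 508 normalized counts and the WT libraries 277 to 383. Medians were 0.24 for 7 endothelial markers, 0.15 for 7 microglial markers and 0.29 for 5 red blood cell markers, with 1, 0 and 1 higher at that threshold. KO R1 had the highest endothelial and microglial sums, 4398 and 1740 normalized counts. The other KO libraries reached at most 3379 and 1472, and the WT libraries at most 3096 and 1365.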
